A study of Mus musculus with 2 samples.

Results

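The genes that build and supply motile cilia were taken as all symbols that start with Cfap, Dnah, Dnai, Tekt, Rsph, or Ift followed by a digit, with at least 20 UMIs over the cells of both libraries together. A UMI (unique molecular identifier) counts 1 captured transcript. Of 71 symbols with these 6 prefixes, 67 met the minimum, out of 28692 genes listed and 14571 genes with the same minimum. They were 24 Cfap, 15 Dnah, 2 Dnai, 5 Tekt, 7 Rsph and 14 Ift genes. Just above the minimum lay Cfap73 with 22 UMIs, Tekt3 with 48 and Cfap221 with 63. Below it lay Cfap99 with 13 UMIs, the antisense gene Ift88os with 6, Dnah14 with 3 and Rsph6a with 1.

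A motile cilium is built on the axoneme, a ring of doublet microtubules around a central pair. Dynein arms (Dnah heavy chains and Dnai intermediate chains) slide neighbouring doublets past each other, radial spokes (Rsph) relay signals from the central pair to the arms, and tektins (Tekt) run along the inside of the doublets. Cfap names are given to a mixed set of cilia and flagella associated proteins. Intraflagellar transport proteins (Ift) form the trains that carry cargo along the cilium, with the IFT-B complex serving outward and the IFT-A complex inward transport. In the lung, motile cilia are carried by the ciliated cells of the airway, which move mucus, and many other cells carry a single primary cilium that also needs Ift proteins.

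Single cells had been sequenced in droplets, with 1 library per group, both from lungs of wild-type C57BL/6 mice, sorted for cells negative for CD45 and positive for SftpC (surfactant protein C) to a stated purity above 95%. The tumor-bearing library was made from a model of spontaneous lung metastasis, 14 days after 1000000 luciferase-labeled LLC cells (Lewis lung carcinoma, a transplantable mouse tumor line) were injected under the skin of the back. The control library came from untreated wild-type lung. How many animals went into each library is not given in the sources used here, so no difference between the libraries has a replicate check, and differences between the mice, the sorts and the treatment cannot be told apart.

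Cells were barcodes with at least 2000 UMIs: 8193 in the tumor-bearing library (median 8687 UMIs) and 11007 in the control library (median 6867). Between the libraries 128 cell barcodes were shared, against 122 if barcodes were drawn independently, and no ciliated barcode was shared. Ciliated cells were those with at least 4 of the 5 markers Fam183b, Tmem212, Ccdc153, AU040972 and 1110017D15Rik and with Sftpc under 10% of their UMIs. By this rule 217 cells of the tumor-bearing library (2.65%, exact 95% Clopper-Pearson interval 2.31 to 3.02) and 280 of the control library (2.54%, 2.26 to 2.86) were ciliated. These cells are not the target of the stated sort. All 10 ciliated markers that the rule did not use were read in them, among them Foxj1, Sntn, Pifo and Tppp3, with a summed level of 12837 counts per 1000000 UMIs (CPM) in the tumor-bearing and 13484 CPM in the control library.

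Few cells lay just below the marker limit of the ciliated class, where 10 and 8 cells with low Sftpc carried exactly 3 markers. With each cell thinned to 2000 UMIs, these held a UMI of a median of 17.5 and 15 genes of the set, much as cells within the class did, and their summed level of the set was 3421 and 10643 CPM. At the limit, 50 and 104 cells carried 4 markers, and 167 and 176 carried all 5. The marker AU040972 itself was read at 1553 CPM in ciliated cells of the tumor-bearing and 872 CPM in those of the control library. A further 35 and 67 cells carried at least 4 ciliated markers together with Sftpc of 10% or more, and are called mixed here. Their median depth was 12577 and 10003 UMIs, against 5253 and 4431.5 in ciliated cells. Other classes were AT1-like cells (alveolar type 1, 122 and 264 cells), club-like cells (secretory airway cells, 295 and 82) and endothelial-like cells (499 and 61), each with Sftpc under 10% and at least 4 of 5 class markers. Most cells had Sftpc of 10% or more (6855 and 10179 cells, called Sftpc-high), the mark of alveolar type 2 cells.

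Ciliated cells held nearly the whole set at much higher levels than other cells. UMIs of all cells in a class were added up and expressed as CPM, and a gene was called where the fold was at least 2 and the exact 95% Poisson intervals did not overlap. In the tumor-bearing library 65 of 67 genes were called higher in ciliated cells, where 30.0% of all genes were, and in the control library 63 of 67, where 28.5% of all genes were. The UMI minimum, the same for all genes, counted ciliated cells too. Tekt3, Dnah7c, Cfap73 and Cfap221 met it only through them, so their calls were partly set by that filter. Their UMIs in other cells were 9 and 4, 5 and 6, 4 and 2, and 5 and 9 (tumor-bearing and control). No gene of the set was called lower in either library (background 5.87% and 5.63%). Against other cells without a UMI of any of the 5 ciliated markers, again 65 and 63 were called higher (background 29.6% and 28.6%) and none lower (6.05% and 5.65%). The median log2 ratio with a pseudocount of 1 CPM was 5.49 and 5.28 over the set, and 0.50 and 0.47 over all genes. Sftpc alone took 22.7% and 24.7% of the UMIs of other cells and 1.24% and 2.10% of those of ciliated cells. With Sftpc and mitochondrial genes left out of the total, the medians over all genes were 0.21 and 0.15 and those over the set 5.32 and 5.25. Intervals cover counting error only, since cells of 1 library are not replicates.

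The families differed in how far ciliated cells stood above other cells. Genes other than Ift had median folds of 184 (tumor-bearing) and 154 (control), and Ift genes of 11.7 and 11.8. Of all UMIs of dynein arm genes, 74.7% and 72.5% lay in ciliated cells, and a further 10.3% and 14.5% in mixed cells. Of all UMIs of genes other than Ift, 43.7% and 44.2% lay in ciliated cells and 39.5% and 39.1% in Sftpc-high cells without a UMI of any ciliated marker, where Cfap20 alone gave 5349 of 9877 and 4850 of 9770 such UMIs. Of all UMIs of Ift genes, 10.4% and 9.53% lay in ciliated cells, and 71.7% and 75.4% in those Sftpc-high cells. Summed over all 67 genes, the set took 1.14% (1.12 to 1.16) and 1.11% (1.09 to 1.13) of the UMIs of ciliated cells, and 0.0582% and 0.0594% of those of other cells.

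**Figure D1:**
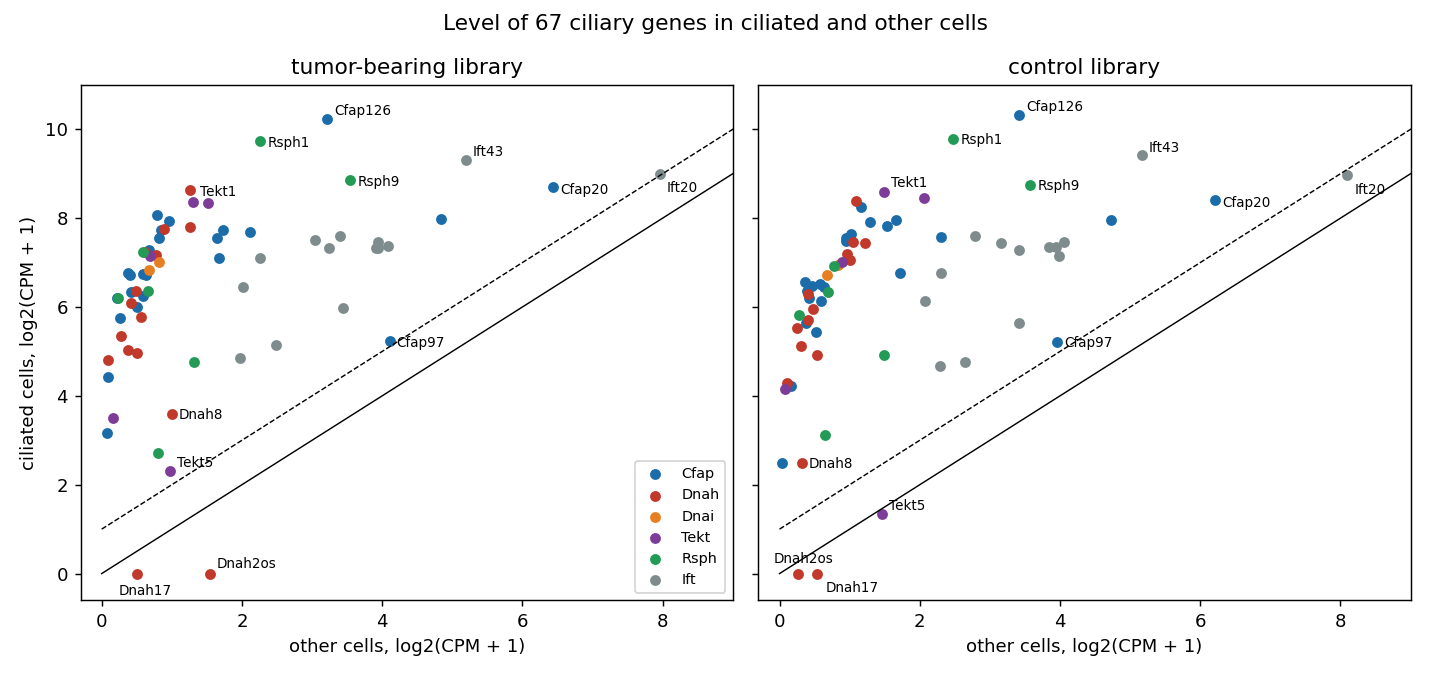
Level of each of the 67 genes in other cells (horizontal axis) and ciliated cells (vertical axis), both as log2(CPM + 1), by family and library; the solid line marks equal levels and the dashed line a 2-fold higher value of CPM + 1 in ciliated cells. Most Cfap, Dnah, Dnai, Tekt and Rsph genes stand far above the lines, Ift20 lies near the dashed line, and Dnah2os and Dnah17 lie at 0 in ciliated cells.

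The highest levels belonged to a basal body protein and a spoke protein. Levels are per UMI of the class and were not divided by gene length, since each UMI counts a captured transcript whatever its length. Cfap126, also called Flattop, which acts in basal body docking and positioning (mm10, chromosome 1, 171113918 to 171126967, plus strand), stood at 1204 CPM (1144 to 1266) in ciliated cells of the tumor-bearing and 1288 CPM (1227 to 1351) in those of the control library, against 8.31 and 9.63 CPM in other cells. With every cell thinned to 2000 UMIs, 86.6% and 90.7% of ciliated cells held a Cfap126 UMI, against 0.784% and 1.13% of Sftpc-high cells without a ciliated marker. Unthinned, the shares were 97.7% and 100% against 4.80% and 3.93%, at median depths of 5253 and 4431.5 against 8899 and 6913 UMIs. Cfap126 was thus read in nearly every ciliated cell of both libraries.

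Rsph1, a protein of the spoke head (chromosome 17, 31255019 to 31277383, minus strand), followed with 849 CPM (798 to 901) and 883 CPM (833 to 936) in ciliated cells and 3.78 and 4.57 CPM in other cells. The other spoke head genes were Rsph9, with 463 and 429 CPM, and Rsph4a, with 150 and 120 CPM. Rsph9 was less limited to ciliated cells, with 10.7 and 10.9 CPM in other cells, folds of 43.4 and 39.2, while Rsph4a stood at 0.512 and 0.719 CPM there, folds of 293 and 167. Rsph14 stood at 72.2 and 55.4 CPM and Rsph10b at 81.8 and 80.0 CPM in ciliated cells. The lowest were Rsph3a (26.2 and 29.2 CPM) and Rsph3b (5.56 and 7.69 CPM), near-identical copies of a spoke stalk gene between which reads may be split.

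Dynein heavy chains spanned a wide range. Those of the inner arms were led by Dnah12 (chromosome 14, 26693274 to 26891703, plus strand), with 394 CPM (360 to 430) and 333 CPM (302 to 366) in ciliated cells against 1.39 and 1.13 CPM in other cells. Dnah6 followed with 224 and 173 CPM and Dnah3 with 144 and 133 CPM, and the near-identical copies Dnah7a, Dnah7b and Dnah7c stood at 81.8, 31.8 and 27.0 CPM in the tumor-bearing and 77.7, 33.8 and 18.5 CPM in the control library. Dnah10, Dnah1 and Dnah2 lay lower, between 29.2 and 54.0 CPM. Thus 8 heavy chain genes of the inner arm other than Dnah7c were called in both libraries at folds from 65.0 to 295, and Dnah7c at 401 and 240 from 5 and 6 UMIs in other cells.

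The outer arm heavy chains of airway cilia were led by Dnah5 (chromosome 15, 28203752 to 28472052, plus strand), with 214 CPM (190 to 241) and 175 CPM (153 to 199). Dnah9 stood at 151 and 146 CPM and Dnah11 at 66.7 and 60.8 CPM. The outer arm intermediate chain genes Dnaic1 (129 and 105 CPM) and Dnaic2 (113 and 122 CPM) lay in the same range as Dnah9. Dnah5, Dnah9 and Dnah11 stood at or under 1.07 CPM in other cells, with folds from 153 to 280.

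Dnah8 and Dnah17, outer arm heavy chains best known from sperm, behaved otherwise. Dnah8 had 14 and 6 UMIs in ciliated cells (11.1 and 4.62 CPM) and was called at folds of 11.1 and 18.9. Dnah17 had 0 UMIs there in both libraries, with a floor of 3 counts at 2.38 and 2.31 CPM. It had 31 and 35 UMIs in all other cells together (0.418 and 0.449 CPM), levels too low to be compared with that floor.

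The tektins split in the same way. Tekt1 (chromosome 11, 72344722 to 72362442, minus strand) stood at 330 CPM (299 to 364) and 385 CPM (352 to 420) in ciliated cells, Tekt4 at 321 and 348 CPM, and Tekt2 at 141 and 129 CPM. All 3 were called, at folds from 109 to 233. Tekt3 was low, with 13 and 22 UMIs in ciliated cells against 9 and 4 in other cells, and was also called in both libraries. Tekt5, a tektin known from sperm flagella, had only 5 and 2 UMIs in ciliated cells (3.97 and 1.54 CPM) and was called in the tumor-bearing library alone.

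The other Cfap genes spanned a wide range. Cfap20, a protein of the doublet's inner junction (chromosome 8, 95420249 to 95434869, minus strand), had 418 and 342 CPM in ciliated cells but also 85.9 and 72.9 CPM in other cells. The doublet lumen gene Cfap161 (chromosome 7, 83774101 to 83794880, minus strand) had 268 and 304 CPM against 0.727 and 1.25 CPM. Cfap53 stood at 213 and 248 CPM, Cfap45 at 186 and 226 CPM and Cfap52, also of the doublet lumen, at 104 and 93.8 CPM. Cfap206 stood at 210 and 199 CPM, Cfap77 at 187 and 238 CPM, Cfap100 at 156 and 188 CPM and Cfap69 at 137 and 108 CPM. Cfap43 and Cfap44, which help to tether the inner arm motor, stood at 206 and 188 CPM and at 243 and 179 CPM. The central apparatus genes Cfap46, Cfap54, Cfap74 and Cfap221 lay between 17.7 and 105 CPM. All 24 Cfap genes were called higher in ciliated cells in both libraries, the least so Cfap97, at 2.25-fold (1.64 to 3.02) and 2.49-fold (1.82 to 3.33).

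Of the transport genes, Ift43 of IFT-A (chromosome 12, 86082541 to 86162459, plus strand) was highest in ciliated cells, with 636 CPM (593 to 681) and 682 CPM (637 to 728) against 35.5 and 35.0 CPM in other cells. Ift20 of IFT-B, which also acts at the Golgi apparatus (chromosome 11, 78536361 to 78541737, plus strand), followed with 512 CPM (473 to 553) and 498 CPM (460 to 538), but stood at 248 and 273 CPM in other cells. Its fold was 2.06 (1.91 to 2.23) and 1.82 (1.68 to 1.97), so it passed the 2-fold limit in the tumor-bearing library alone. Ift20 therefore sat near the call limit in both libraries.

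The other 12 Ift genes were called in both libraries, at folds from 4.96 to 35.9. Ift74, Ift46, Ift172, Ift57, Ift22, Ift27 and Ift81 lay between 140 and 194 CPM in ciliated cells, Ift88 at 137 and 108 CPM, and Ift122, Ift52, Ift80 and Ift140 between 24.6 and 86.5 CPM. Beside Ift43, the IFT-A genes were thus read at 86.5 and 69.2 CPM (Ift122) and at 27.8 and 24.6 CPM (Ift140). The median over the 11 IFT-B genes was 160 and 162 CPM.

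In ciliated cells the set was read together in the same cells. With each cell thinned to 2000 UMIs, a ciliated cell held a UMI of a median of 17 genes of the set in the tumor-bearing library (range 2 to 30) and 16 in the control library (4 to 25). Unthinned, the medians were 31 and 26. Thinned, 210 of 217 and 271 of 280 ciliated cells held at least 10 genes. Unthinned, all 217 and 280 did. Thinned, Sftpc-high cells without a ciliated marker held a median of 1 gene and at most 5 and 6. Unthinned, 14 of 6252 and 5 of 9179 of them held at least 10, and none more than 12. Mixed cells lay between, with thinned medians of 6 and 7 genes. The number of genes detected did not follow how many of the markers a cell carried within the class, since cells with 4 and with 5 markers had medians of 17.5 and 17 in the tumor-bearing and of 16 and 16 in the control library.

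**Figure D2:**
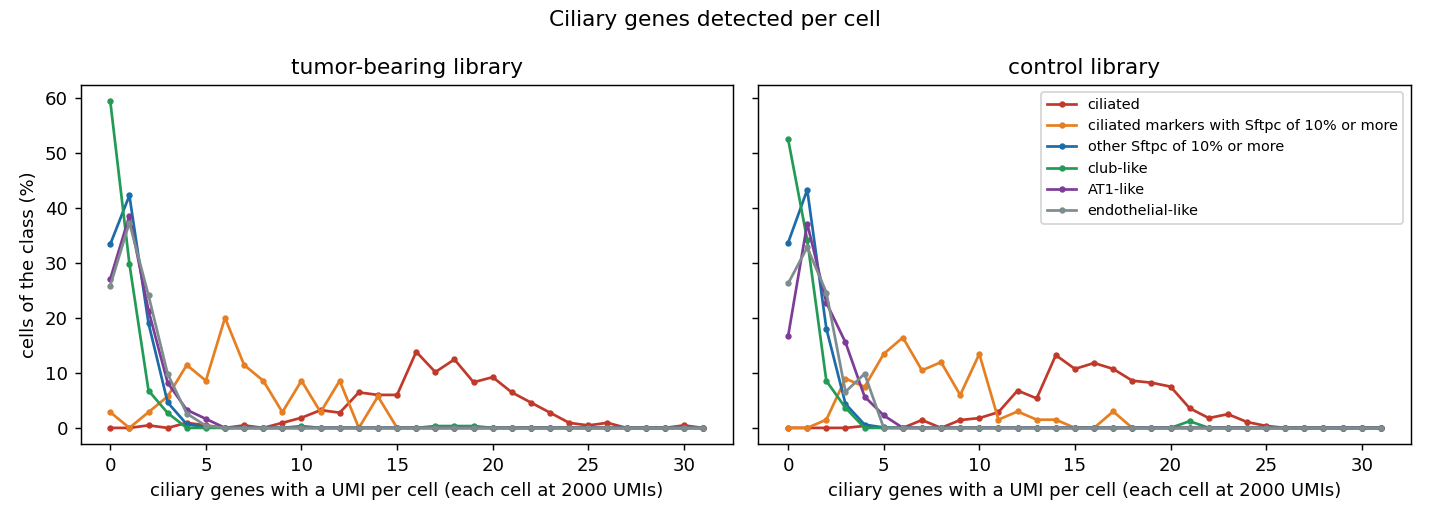
Share of the cells of each class (vertical axis, percent) by the number of the 67 genes with a UMI in the cell (horizontal axis), each cell thinned to 2000 UMIs, for each library. Ciliated cells peak well above 10 genes, mixed cells lie between them and the rest, and the other classes peak at 0 or 1 gene.

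A few cells departed from their class. In the tumor-bearing library the 7 ciliated cells with fewer than 10 genes of the set after thinning had a median of 12484 UMIs, against 5182 in the other 210. A median of 11.9% of their UMIs, and up to 59.1%, came from the secretory genes Scgb1a1, Scgb3a2, Scgb3a1 and Bpifa1, against a median of 0.781% in the other 210. The 9 such cells of the control library had a median of 5963 UMIs, and 0.268% of UMIs from secretory genes. Conversely, 4 of 295 club-like cells of the tumor-bearing library (with 10, 17, 18 and 19 genes) and 1 of 82 of the control library (21 genes) held at least 10 genes of the set, while all other club-like cells held at most 3. Of the cells with low Sftpc that fell in no class, 6 of 205 tumor-bearing (13 to 22 genes) and 7 of 141 control cells (13 to 18 genes) held at least 10. The part of droplets with more than 1 cell in these departures was not tested.

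Outside ciliated cells, the class with the highest level differed by gene. Over ciliated, Sftpc-high, AT1-like, club-like and endothelial-like cells, 63 of 67 genes were highest in ciliated cells in both libraries. The other 4 were Tekt5, Dnah8, Dnah2os and Dnah17, the last with too few UMIs to order the classes. Tekt5 (chromosome 16, 10357948 to 10395490, minus strand) was highest in AT1-like cells, with 21.1 CPM (12.1 to 34.3) and 38.6 CPM (29.9 to 49.0), against 0.449 and 0.786 CPM in Sftpc-high cells without a ciliated marker and 1.49 and 2.15 CPM in empty droplets. A Tekt5 UMI was found in 16 of 122 and 55 of 264 AT1-like cells. The level in AT1-like cells thus exceeded the levels in ciliated cells and in empty droplets in both libraries, with separate intervals. Endothelial-like cells came next, with 6.45 CPM (11 UMIs) and 28.0 CPM (5 UMIs). Their interval lay below that of AT1-like cells in the tumor-bearing library and overlapped it in the control library.

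Dnah8 (chromosome 17, 30624354 to 30877365, plus strand) and the antisense gene Dnah2os (chromosome 11, 69448548 to 69453676, plus strand) were highest in endothelial-like cells. Dnah8 stood there at 27.5 CPM (20.2 to 36.6) and 28.0 CPM (9.08 to 65.3), and at 1.49 and 0.431 CPM in empty droplets. Its interval overlapped that of ciliated cells in the control library (1.69 to 10.0) but not in the tumor-bearing library (6.08 to 18.6). Dnah2os stood at 53.3 CPM (42.9 to 65.5) and 44.7 CPM (19.3 to 88.2) in endothelial-like cells, against 0 UMIs in ciliated cells of both libraries.

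Dnah2os lies within Dnah2 on the other strand. Whether the counting used the strand is not given in the sources used here, so reads of the pair may not be told apart. The counts of the pair went opposite ways. Dnah2 had 38 and 38 UMIs in ciliated cells and 0 and 1 in endothelial-like cells, while Dnah2os had 0 and 0 in ciliated cells and 91 and 8 in endothelial-like cells.

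Cfap43 had a second, lower level in AT1-like cells, with 42.2 CPM (28.9 to 59.6) and 51.8 CPM (41.7 to 63.7), against 1.76 and 1.95 CPM in Sftpc-high cells without a ciliated marker and 7.46 and 7.32 CPM in empty droplets. Cfap43 was chosen for mention after its values were seen. Ift43 was likewise read in AT1-like cells at 174 CPM (146 to 206) and 154 CPM (136 to 174), in endothelial-like cells at 114 and 78.3 CPM, and in Sftpc-high cells without a ciliated marker at 30.6 and 29.7 CPM. Cfap36, a partner of the ciliary GTPase Arl3, showed the same order at 63.3 and 69.1 CPM in AT1-like cells, 42.8 and 55.9 CPM in endothelial-like cells and 26.0 and 23.7 CPM in Sftpc-high cells without a ciliated marker. The AT1-like and endothelial-like intervals overlapped for Cfap36 in both libraries, and those of Ift43 overlapped in neither. By level alone, Ift22, Ift46, Ift52 and Ift57 had the same order of classes as Ift43 in both libraries. The remaining Ift genes did not keep that order in both. In empty droplets Ift43 was at 57.8 and 51.3 CPM and Cfap36 at 32.5 and 28.4 CPM, so AT1-like cells lay above empty droplets for both genes and Sftpc-high cells without a ciliated marker below for Ift43.

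Ift20 had another order, with the highest level outside ciliated cells in Sftpc-high cells without a ciliated marker, at 268 CPM (264 to 272) and 278 CPM (274 to 282). It stood at 156 and 194 CPM in AT1-like, 148 and 162 CPM in endothelial-like and 103 and 93.4 CPM in club-like cells. The AT1-like and endothelial-like intervals overlapped in both libraries, whereas club-like cells lay below AT1-like cells in CPM with separate intervals. In club-like cells the 5 club markers alone summed to 591401 and 509554 CPM, which lowers the CPM of every other gene there. Levels without these markers in the total were not computed, so the place of club-like cells in these orders may rest on the scaling. Empty droplets held Ift20 at 249 CPM (236 to 263) and 286 CPM (264 to 308). Cfap20 was likewise higher there, at 92.4 and 73.3 CPM in Sftpc-high cells without a ciliated marker against 63.3 CPM (46.7 to 83.9) and 62.8 CPM (51.5 to 75.7) in AT1-like and 34.0 and 36.1 CPM in club-like cells, with the interval of AT1-like cells overlapping in the control library. Its level in empty droplets was 85.8 and 77.5 CPM. Thinned to 2000 UMIs, 41.5% and 41.7% of Sftpc-high cells without a ciliated marker held an Ift20 UMI, against 62.7% and 57.1% of ciliated cells, and unthinned 86.5% and 81.1% against 88.0% and 80.4%.

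Levels were also set against free RNA, read in empty droplets (barcodes with 1 to 100 UMIs). Over the Ift genes with at least 20 UMIs in empty droplets (14 for tumor-bearing, 9 for control), the level in Sftpc-high cells without a ciliated marker was a median 0.729 and 0.727 times that in empty droplets. Over the other genes of the set (24 and 9 with that many UMIs) it was 0.0820 and 0.256 times. The Cfap genes among these had medians of 0.236 (13 genes) and 0.833 (5 genes), the latter above the Ift median of the control library. Dnah12, for example, had 5.97 and 5.60 CPM in empty droplets and 0.207 and 0.136 CPM in Sftpc-high cells without a ciliated marker. These Sftpc-high cells were chosen for having no UMI of the 5 ciliated markers, which leaves out droplets with more ciliated RNA. The Dnah12 level in these Sftpc-high cells thus lay below that of empty droplets, as did the median over the Ift genes. Such a comparison cannot tell free RNA from RNA of the cell, and the source of these UMIs was not tested.

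**Figure D3:**
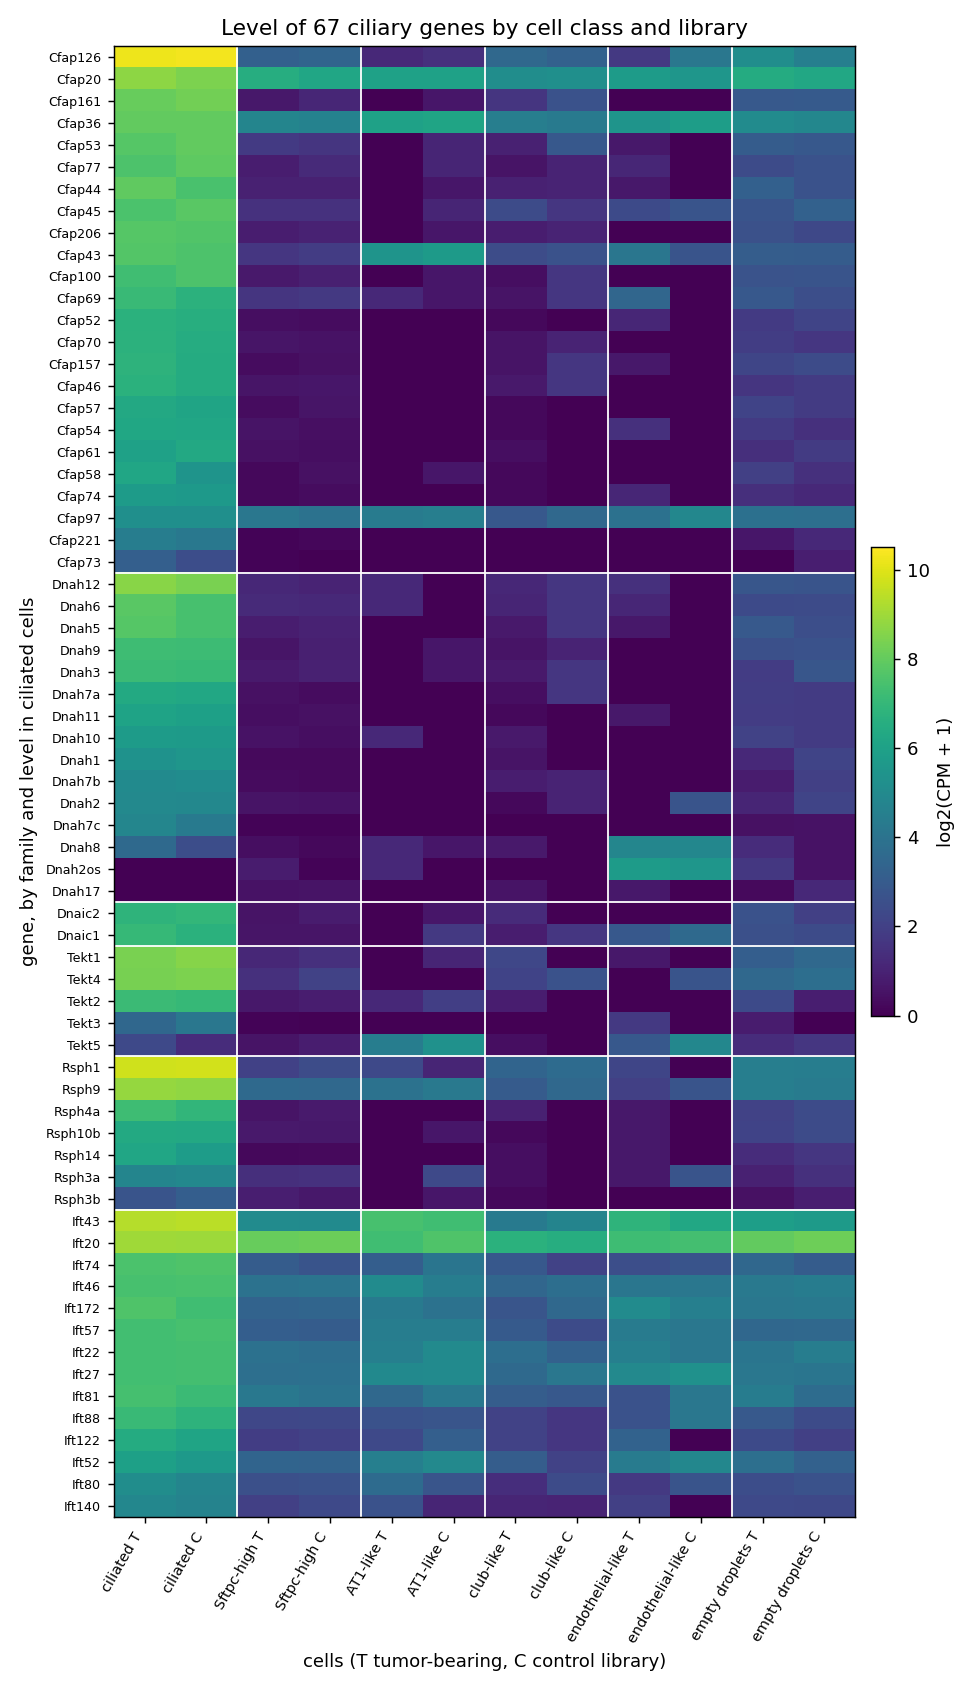
Level of each of the 67 genes (rows, by family and then by level in ciliated cells) in 5 cell classes and in empty droplets of the tumor-bearing (T) and control (C) libraries (columns), as log2(CPM + 1) by colour. The ciliated columns are bright for nearly all genes, most Ift rows, Cfap20 and Cfap36 stay visible in every class (Ift122 and Ift140 are at 0 in endothelial-like cells of the control library), and Cfap43 and Tekt5 stand out in AT1-like and Dnah8 and Dnah2os in endothelial-like cells.

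Promoters of the set were searched for the short motifs of factors known to drive ciliary genes, since the set was high together in the same cells. RFX factors bind the X-box, whose conserved arm is GTTGCC, and Foxj1, the master regulator of motile cilia, is a forkhead factor whose family binds TGTTTAC. RefSeq promoters (GRCm38.p6, 250 bases before to 50 after each start) matched 54 of 67 genes, with 61 promoters. GTTGCC on either strand was in 23 of these 61 promoters (37.7%) and in 4111 of all 32851 promoters (12.5%). TGTTTAC on either strand was in 4 of 61 (6.56%) and in 1199 of all (3.65%). The X-box with both arms was searched in a strict form, as GTTNCC, 0 to 3 bases and GGNAAC on both strands. It was in 1 of 61 (1.64%) and in 264 of all (0.804%), and arms with other letters were not counted. An X-box can hold GTTGCC, so these searches overlap. Mean GC content was 55.8% and 53.8%, and the median number of CG steps per promoter 14 and 7. A match is a description of these letters and not of binding.

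The stretches below are from 5 of the genes that hold the motif, read 5′ to 3′ on the gene's strand and ending no later than the base before the RefSeq start or the first annotated exon. Capitals mark GTTGCC or its reverse complement GGCAAC. The RefSeq start of Tekt1 lies within the longer GENCODE gene. The stretches show that the motif occurs in both orientations and at different distances from the start.
Tekt2 (chr4:126325689-126325788, minus strand): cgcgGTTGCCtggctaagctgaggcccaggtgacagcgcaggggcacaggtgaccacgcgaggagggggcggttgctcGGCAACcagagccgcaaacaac
Tekt1 (chr11:72361883-72361982, minus strand): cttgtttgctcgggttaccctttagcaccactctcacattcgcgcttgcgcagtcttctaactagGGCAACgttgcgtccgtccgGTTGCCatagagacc
Cfap161 (chr7:83794881-83794939, minus strand): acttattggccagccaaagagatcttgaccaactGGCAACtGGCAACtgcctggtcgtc
Cfap20 (chr8:95434870-95434969, minus strand): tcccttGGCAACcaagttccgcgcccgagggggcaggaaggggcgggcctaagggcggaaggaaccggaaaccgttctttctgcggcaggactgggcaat
Dnaic2 (chr11:114727319-114727407, plus strand): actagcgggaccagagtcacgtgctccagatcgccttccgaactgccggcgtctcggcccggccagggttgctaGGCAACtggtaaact

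Tekt1, Tekt2, Cfap161 and Dnaic2, whose motifs begin 15 to 96 bases before the start, were at most 1.81 CPM in other cells, while Cfap20, which holds the motif as well, was at 85.9 and 72.9 CPM there. Holding the motif in this window therefore went with both restricted and widely read genes. Over genes other than Ift it was in 36.0% of promoters, and over Ift genes in 45.5%.

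Between the libraries, the set was at much the same level in ciliated cells. None of the 67 genes was called higher in the tumor-bearing library (background 0.625% of 14571 genes) and none was called lower (0.686%). The median log2 ratio of tumor-bearing over control was 0.08 over the set and 0 over all genes. Summed over the set, the fold was 1.02 (1.00 to 1.05). Of the 65 genes with UMIs in both libraries, 56 had an exact 95% interval of the fold that lay within 0.5 to 2, and the 52 with at least 50 UMIs in each library had folds from 0.782 to 1.71. The intervals of these 56 genes leave out a 2-fold difference between these libraries, and the intervals of the other 9 (Cfap58, Dnah7c, Dnah8, Cfap73, Cfap221, Tekt3, Tekt5, Rsph3b and Ift80) reached past 0.5 or 2.

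**Figure D4:**
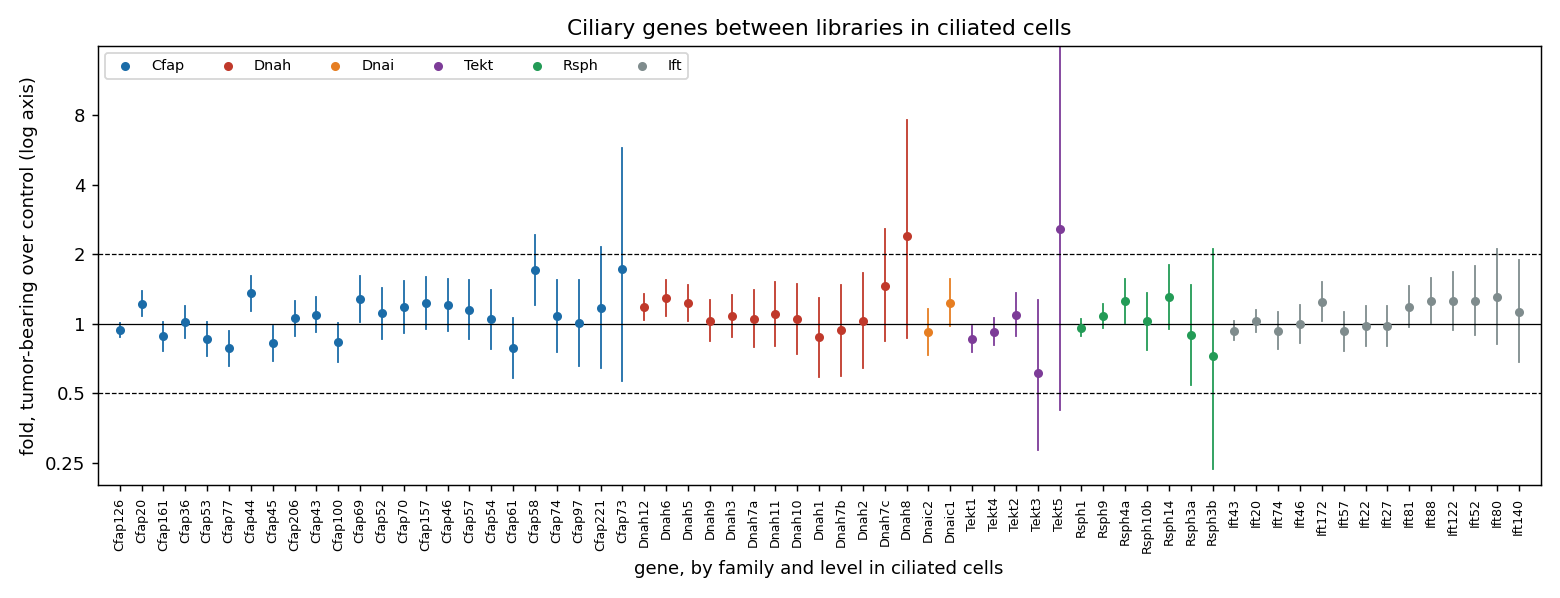
Fold of the tumor-bearing over the control library in ciliated cells (vertical axis, log scale) for the 65 genes with UMIs in both libraries, by family and level; points are folds, bars exact 95% intervals of counting error, and dashed lines mark 0.5 and 2. Most bars hold 1 and lie within the dashed lines, and the long bars belong to genes with few UMIs, Tekt5 reaching past the top of the axis.

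Smaller differences had intervals that left out 1 for 13 genes. Higher in the tumor-bearing library were 10: Cfap58, Cfap44, Dnah6, Cfap69, Ift88, Rsph4a, Ift172, Dnah5, Cfap20 and Dnah12. Cfap58 was the largest, with 91 UMIs (72.2 CPM) in the tumor-bearing and 55 UMIs (42.3 CPM) in the control library, a fold of 1.71 (1.21 to 2.43). Cfap44 had a fold of 1.36 (1.14 to 1.61) and Dnah6 of 1.29 (1.08 to 1.55). The other 7 lay between 1.18 and 1.28. Lower were Cfap77, with 187 and 238 CPM and a fold of 0.782 (0.657 to 0.930), Cfap45 with 0.821 (0.689 to 0.979) and Tekt1 with 0.859 (0.752 to 0.980). Each of these intervals was taken singly, without adjustment for the number of genes.

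Genes with many UMIs have narrow intervals, so the count was also made above a minimum, without matching the genes' UMIs further. Of genes with at least 50 UMIs in each library, 10 of 52 in the set (19.2%) and 262 of 3432 in all (7.63%) had an interval above 1, and 3 of 52 (5.77%) and 322 of 3432 (9.38%) one below 1. By family, the summed fold was 1.15 (1.07 to 1.23) for Dnah, 1.06 (0.903 to 1.25) for Dnai, 1.03 (0.978 to 1.08) for Ift, 1.03 (0.966 to 1.09) for Rsph, 1.01 (0.969 to 1.04) for Cfap and 0.917 (0.842 to 0.999) for Tekt. Dnah genes, summing to 1469 CPM in the tumor-bearing and 1282 CPM in the control library, thus had the largest summed fold of the 6 families, with 11 genes above and 2 below their control level.

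Markers of other cell types differed in level between the ciliated cells of the libraries. All 5 club cell markers were read in both, with a summed level of 41455 CPM in the tumor-bearing and 9082 CPM in the control library, most of it Scgb1a1 (37005 and 5438 CPM). The 6 alveolar type 2 markers summed to 15634 and 25403 CPM, the red cell markers to 28.6 and 385 CPM (4 and 5 of 5 read), the fibroblast markers to 3.18 and 90.8 CPM (2 and 4 of 5 read, Dcn at 0 and 63.1 CPM), and the endothelial markers to 237 and 101 CPM. Of the leukocyte markers Ptprc was at 0 in both, and Cd74 made up 357 and 755 CPM. Whether such RNA came from other cells was not tested. The part of such RNA, and of depth, in the differences between libraries was not tested either. With ciliated cells limited to Sftpc under 2% of UMIs, and with the deepest 10% left out, again no gene of the set was called. None had been called without these limits, so these counts do not bear on that part.

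In the other classes few genes of the set were called between the libraries. Over all other cells 2 genes were called higher, Dnah2os and Dnah8 (background 7.23%), and 1 lower, Cfap58 (background 0.611%). Dnah2os had 142 and 16 UMIs there and Dnah8 74 and 19. Endothelial-like cells, in which both genes were highest, made up 6.09% and 0.554% of cells. Within them neither gene was called, with wide intervals of the fold, 1.19 (0.580 to 2.84) for Dnah2os and 0.985 (0.394 to 3.17) for Dnah8. The part of cell shares in the calls over all other cells was not tested. Cfap58 had 12 and 34 UMIs in other cells, the reverse of its direction in ciliated cells.

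In Sftpc-high cells Dnah2os was called higher, with 48 and 6 UMIs (background 3.99%), and Cfap161 lower, with 37 and 88 UMIs (background 0.549%). In AT1-like cells no gene of the set was called either way (background 0.954% and 0.583%), nor in endothelial-like cells (0.563% and 0.652%). In club-like cells none was called higher (0.240%) and 1 lower (2.20%), Cfap53 with 6 UMIs in each library at 0.959 and 6.37 CPM. All these calls in other classes rest on levels under 7 CPM.

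The rest of the ciliary machinery, in 10 lists of 125 genes outside the set except for Tekt5, was counted in the same way. In ciliated over other cells, where 30.0% and 28.5% of all genes were called higher and 5.87% and 5.63% lower, the regulators of ciliated cell formation were called higher for 7 of 9 genes with at least 20 UMIs in both libraries, dynein assembly factors for 11 of 11, light and intermediate chains without the prefix for 9 of 11, docking and nexin-dynein regulatory complex genes for 14 of 14, and central pair and spoke genes without the prefix for 13 of 13. Microtubule inner proteins were called higher for 14 of 14 and 13 of 14, transport genes without the prefix for 10 of 10 and 9 of 10, transport motors for 11 of 11, and genes of the BBSome, the coat that sorts ciliary membrane cargo, for 11 of 11. Tubulins and their modifiers were called higher for 9 of 13 and lower for 1.

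Among the regulators, Foxj1 stood at 397 and 397 CPM in ciliated cells, Ccdc78 at 265 and 273 CPM and Myb at 102 and 94.6 CPM, with folds over other cells from 136 to 197. Mcidas and Gmnc, which act early when a cell commits to many cilia, had 1 and 0 UMIs and 0 and 0 UMIs there. Neither was called, and of their 62 and 41 UMIs over both libraries 1 and 0 lay in ciliated cells.

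Of the structural genes, the light chain genes Dynll1 (2754 and 3381 CPM) and Dynlrb2 (2235 and 2226 CPM) and the tubulin genes Tuba1a (2747 and 2849 CPM) and Tubb4b (1730 and 1880 CPM), with the microtubule binding gene Tppp3 (4948 and 5405 CPM), exceeded every gene of the set. Of the central pair and spoke genes, Nme5 stood at 552 and 485 CPM and Spag17 at 352 and 272 CPM in ciliated cells. The docking and regulatory complex genes Lrrc48 (275 and 271 CPM) and Iqca (268 and 252 CPM) were also read there. Of the transport machinery, Traf3ip1 stood at 343 and 266 CPM, Rabl2 at 255 and 270 CPM, the kinesin motor gene Kif3a at 148 and 159 CPM, and Arl3 at 479 and 443 CPM.

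Between the libraries in ciliated cells, where 0.625% of all genes were called higher and 0.686% lower, 1 of these list genes was called, near that share. It was Tuba1c, a tubulin gene also read in other cells, with 25.4 and 56.9 CPM and a fold of 0.446 (0.285 to 0.684). The summed fold of central pair and spoke genes was 1.17 (1.11 to 1.23), with 11 of 13 above and 2 below the level of the control library, and that of docking and regulatory complex genes 1.09 (1.03 to 1.15). That of tubulins and modifiers was 0.931 (0.910 to 0.954), and that of regulators 0.972 (0.895 to 1.06). As in the set, each list stayed within 2-fold between these libraries.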

How the data were processed

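The deposited values are raw counts of UMIs, listed for all 737280 barcodes of each library, so no cell call had been applied to the files. Per the series design, reads were processed with Cell Ranger 2.1.0. The submitters' processing notes name mm10 as the build, and Seurat and R 3.5.3 without a role. The libraries held 84448360 and 91498124 UMIs, of which 89.4% and 86.5% lay in barcodes with at least 2000 UMIs, taken as cells. No authors' cell annotation was used here, and no doublet caller was run.

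From these counts, sums per class were scaled to CPM in Python 3.11.15 (numpy 2.4.6, scipy 1.17.1, pandas 2.3.3). Intervals are at 95%: Poisson for CPM, conditional binomial for folds and Clopper-Pearson for shares. They cover counting error only. Log2 ratios used a pseudocount of 1 CPM, and a level of 0 was taken at a floor of 3 counts in calls. With 1 library per group no test was run. Cells were thinned to 2000 UMIs with a fixed seed to compare detection. The script was tested on simulated data. Gene coordinates are from GENCODE vM21, matched by identifier for all 71 symbols. Of the 125 list genes, 4 were not matched to a symbol.

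The genes of the set, the marker lists and the pathway lists were chosen with earlier results of these data known. Named genes were, per family, the 3 highest in ciliated cells, the 5 highest in other cells, the 5 with the lowest fold of ciliated over other cells, those beside the UMI minimum, any called between libraries in ciliated cells, and up to 3 per pathway list. Other genes are named as examples of their role and were chosen after their values were seen. Alternatives changed the cell minimum, the marker and Sftpc limits, the scaling, the pseudocount, the filter and the depth.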

Additional observations from a re-analysis of the deposited data

How the results depend on the processing

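Over 15 settings, 82 of 100 values stayed within a set tolerance of the main value, and the 18 others were all shares. The tolerance was a fixed fold for counts of genes and the counting interval for shares. For the median log2 ratio it was 0.331, the median half-width of the genes' intervals, which is wider than the ratio itself. Direction was not checked separately. The number of genes called higher in ciliated cells was 62 to 65 of 67 in the tumor-bearing and 62 or 63 in the control library (60 of 60 and 57 of 58 with at least 20 CPM in either group). It was 65 and 63 against other cells without a UMI of a ciliated marker, an alternative chosen after seeing the data (background 29.6% and 28.6%). Between the libraries 0 genes were called in either direction under every setting run for that count, and the median log2 ratio ranged from 0.04 to 0.16. The ciliated share was 2.04% (tumor-bearing) and 1.60% (control) with all 5 markers, 3.08% and 3.15% with no Sftpc limit, and 1.86% in the control library with Sftpc under 2%. The summed share of the set in ciliated cells, in the tumor-bearing and the control library, was 1.20% and 1.19% without mitochondrial genes and Sftpc in the total, 1.21% and 1.14% with each cell thinned to 2000 UMIs, 1.20% and 1.14% as a mean over cells, 1.22% and 1.14% without the deepest 10% of ciliated cells, and 0.943% and 0.880% with no Sftpc limit. It was 1.17% with all 5 and 1.09% with at least 3 markers in the tumor-bearing library, and 1.14% with Sftpc under 2% in the control library. Of 338 log2 ratios of single named genes, 336 moved by less than their counting interval, and the exceptions were Cfap126 (0.02 thinned, -0.10 as reported) and Dnah17 (0.06 with no Sftpc limit). No paired analysis was possible because each group has 1 library. Depth limits what can be said of genes with few UMIs in ciliated cells, such as Dnah8, Dnah17, Tekt5 and Cfap73, and no setting replaces a second library per group.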
